A study of Rattus norvegicus with 8 samples.

Results

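Cytochrome P450 genes other than those of androgen, estrogen and cholesterol synthesis were examined in fetal rat testis. The members were all genes whose platform symbol is Cyp followed by a digit, apart from Cyp11a1, Cyp17a1, Cyp19a1 and Cyp51, and each was read from the probe set with the highest mean signal among those that name that gene alone. This gave 54 of the 14217 genes represented on the array, with 59 probe sets between them, and 5 members had a second probe set. The label holds with 1 reservation: Cyp11b1 and Cyp21a1, which make corticosteroids in the adrenal gland, are P450 genes of steroid synthesis and stayed among the members by the rule.

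The 4 DBP samples were testes of male Fischer 344 fetuses whose dams had received dibutyl phthalate (DBP), a plasticizer, at 50 mg per kg body weight in corn oil. The 4 vehicle samples came from fetuses of dams that had received corn oil alone, at the same volume of 1 ml per kg. All dams were gavaged once a day over gestational days 12 to 20, and testes were taken 6 h after the last dose and read on Affymetrix rat arrays, 1 array per sample. The comparison asked which transcripts of the fetal testis differed after exposure of the dam at this dose. Nothing in the labels says whether samples came from separate dams, so each p-value reflects the spread among these arrays alone, whose number limits the precision.

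Cytochrome P450 enzymes are heme proteins that insert an oxygen atom into small, mostly fat-soluble molecules, using electrons passed on by P450 reductase, or by ferredoxin in mitochondria. Many members of families 1 to 4 clear drugs, environmental chemicals and fatty acids, chiefly in liver, and are induced through receptors that bind the chemical, such as the aryl hydrocarbon receptor. Other families handle bile acids, vitamin D and retinoic acid. In the fetal mouse testis, Cyp26b1 removes retinoic acid and so keeps germ cells from entering meiosis.

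The promoters of 4 members are shown because they carry, or lack, the short motifs through which 2 of these receptor systems are known to act. Each is the stretch of 250 bases before the RefSeq transcription start in build GRCr8, read 5′ to 3′ on the gene's own strand. Capitals mark the aryl hydrocarbon receptor core GCGTG in Cyp1b1 and Cyp1a2, on either strand. In Cyp26a1 and Cyp26b1 they mark AGGTCA and AGTTCA, on either strand, of which retinoic acid receptor sites hold spaced copies. Matches to the other pair's motif are left in lower case, and no matches overlap.
Cyp1b1 (chr6:21094315-21094564, + strand): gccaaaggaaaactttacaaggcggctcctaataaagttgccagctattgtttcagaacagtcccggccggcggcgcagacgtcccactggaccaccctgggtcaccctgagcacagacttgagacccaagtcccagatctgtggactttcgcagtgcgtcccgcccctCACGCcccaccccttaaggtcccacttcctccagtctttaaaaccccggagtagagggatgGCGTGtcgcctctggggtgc
Cyp1a2 (chr8:66978150-66978399, - strand): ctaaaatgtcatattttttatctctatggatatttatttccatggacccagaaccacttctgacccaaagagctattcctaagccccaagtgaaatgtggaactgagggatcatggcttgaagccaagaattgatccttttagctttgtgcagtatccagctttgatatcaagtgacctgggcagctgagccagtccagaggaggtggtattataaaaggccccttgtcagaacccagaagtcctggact
Cyp26a1 (chr1:244883572-244883821, + strand): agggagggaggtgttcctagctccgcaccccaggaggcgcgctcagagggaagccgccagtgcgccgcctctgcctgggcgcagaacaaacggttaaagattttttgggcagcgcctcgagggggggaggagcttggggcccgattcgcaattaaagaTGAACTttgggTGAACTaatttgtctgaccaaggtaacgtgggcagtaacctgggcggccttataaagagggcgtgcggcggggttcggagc
Cyp26b1 (chr4:118616177-118616426, - strand): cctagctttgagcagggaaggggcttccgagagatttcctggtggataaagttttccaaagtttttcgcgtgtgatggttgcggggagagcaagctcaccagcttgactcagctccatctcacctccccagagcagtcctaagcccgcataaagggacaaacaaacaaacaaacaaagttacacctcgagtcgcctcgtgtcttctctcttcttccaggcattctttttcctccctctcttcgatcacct
In Cyp1b1 the core lay at positions -81 to -77 on the opposite strand and at -20 to -16 on the gene's strand, counted back from the start, and in Cyp1a2 there was no match. In Cyp26a1 the motif AGTTCA occurred 2 times on the opposite strand, at -92 to -87 and at -81 to -76. The copies form a direct repeat with 5 bases between them, and in Cyp26b1 there was no match to AGGTCA or AGTTCA. Neither motif was particular to its pair: GCGTG also lay at -21 to -17 in Cyp26a1 and at -183 to -179 in Cyp26b1, and AGGTCA lay at -77 to -72 on the opposite strand in Cyp1a2. The core GCGTG was present in 25.9% of all 33469 RefSeq promoter windows of this length, and in 10 of the 44 members that had a window. At least 1 copy of AGGTCA or AGTTCA was present in 24.3% of all windows and in 23 of the 44. A lone copy is only part of a retinoic acid receptor site, so these are not counts of such sites. These matches are descriptions of the letters in the window, and the arrays do not measure binding.

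As for the arrays themselves, median log2 values lay between 6.08 and 6.13 and RNA integrity numbers between 8.6 and 8.8. DBP replicates 3 and 4 stood apart in the bacterial poly-A spike-ins added before labelling, with a mean log2 signal of 4.84 and 4.79, against 6.68 and 7.17 in the other DBP arrays and 6.46 to 6.79 in the vehicle arrays. The labelled tissue was checked against markers: all 6 measured Leydig cell genes and all 4 measured Sertoli cell genes averaged above a log2 of 5. Of the 6 hepatocyte markers, 4 averaged under 5 (Alb, Apoa1, Fgb and Serpina1), while Ttr averaged 5.89 and Afp 6.88. Since signals of different probe sets are not comparable as amounts, these levels are descriptions only. None of the marker genes was listed at 0 on any array.

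Most members gave low signals in both groups. Across all 8 arrays 37 of the 54 had a mean log2 signal under 5, 46 lay below the median of all tested probe sets (6.10) and 24 below their lower quartile (4.29). Just 3 lay above the upper quartile (8.01): Cyp1b1, Cyp26b1 and Cyp20a1. The table holds no detection calls. Whether the low signals lie above background was therefore not determined, and RMA compresses differences at low signal. The plot of signals by role shows every array value.

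**Figure D1:**
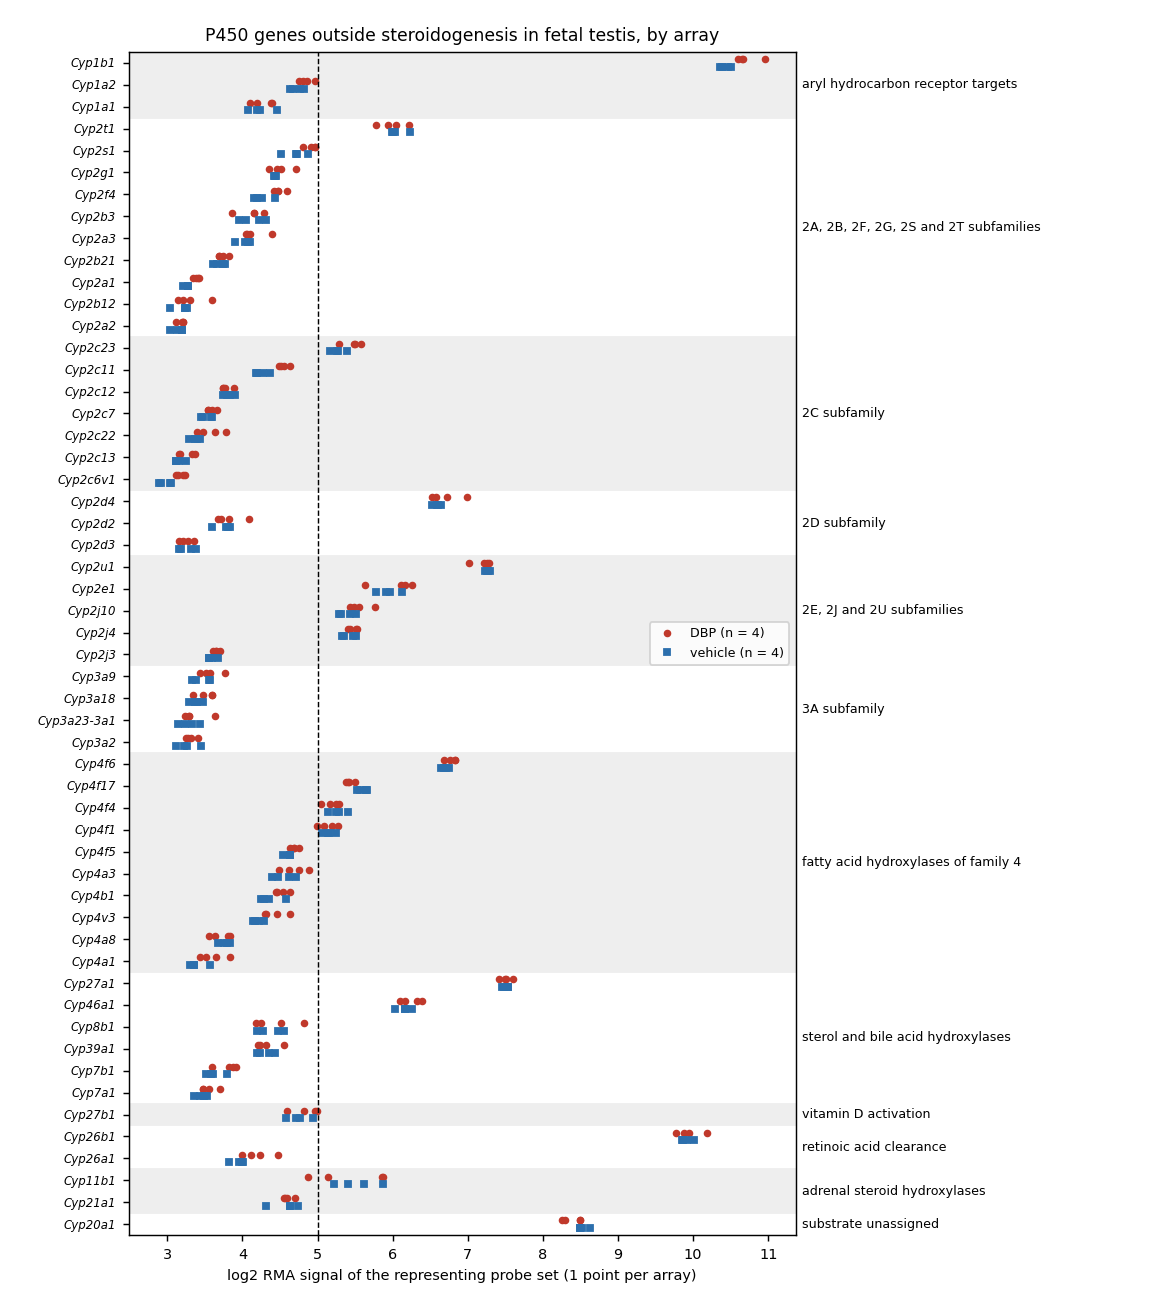
Log2 RMA signal of the 54 P450 members on each array (x axis), grouped by role down the page, with DBP arrays as circles above vehicle arrays as squares. Of the members, 37 average under the dashed line at 5, and Cyp1b1 has 4 DBP arrays between 10.60 and 10.96 against vehicle arrays between 10.36 and 10.51.

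After DBP, none of the 54 members passed limma's moderated test at an adjusted p under 0.05, where 1.22% of all represented genes did (0.598% higher and 0.626% lower after DBP). At an unadjusted p under 0.05 stood 12 members, or 22.2%, against 19.1% of all represented genes. Of these 12, 11 were higher and 1 lower after DBP, where 11.3% of all represented genes were higher and 7.84% lower. The groups did not overlap for 6 members, or 11.1%, against 12.9% of all represented genes. DBP was higher in 5 of the 6 and lower in 1, against 7.31% and 5.56% of all represented genes. The overall shares of members were near those of all genes, and the higher share of 20.4% among members was above the 11.3% of all genes. The largest differences were 0.30 for Cyp2c11 (1.23-fold) and -0.18 for Cyp4f17 (0.886-fold), and 0 members differed by 1.25-fold or more. For 53 of the 54 the 95% confidence interval lay within 1.5-fold in either direction, the exception being Cyp11b1 (-0.59 to 0.41 on the log2 scale). In whole testis, fewer cells of a type and less RNA per cell cannot be told apart.

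**Figure D2:**
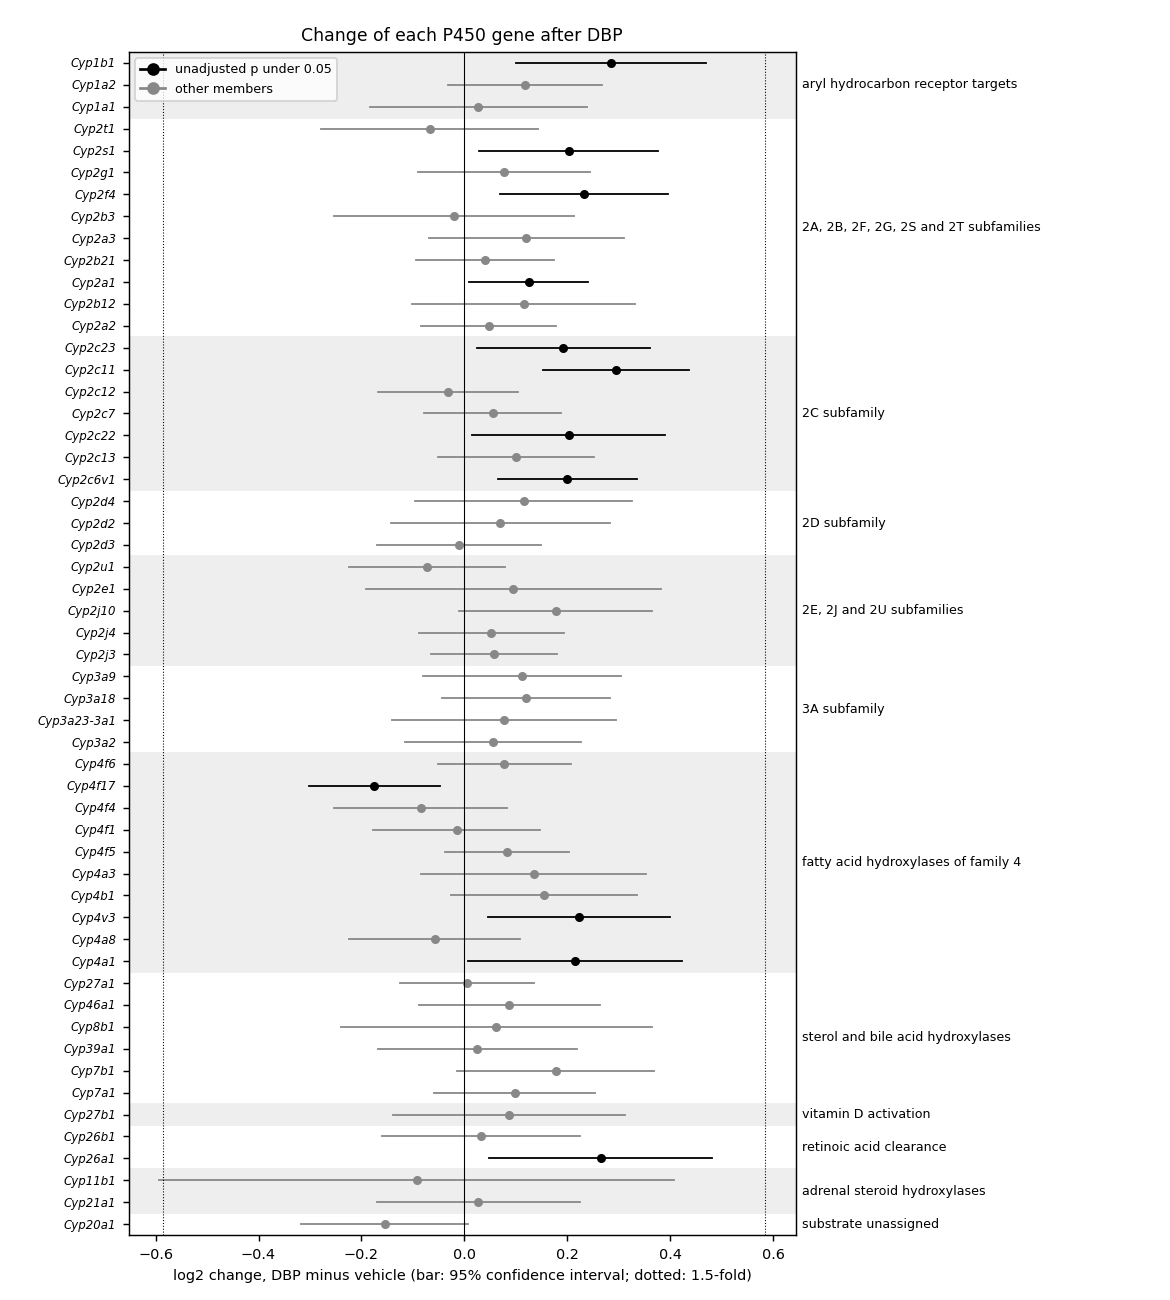
Log2 difference of each of the 54 P450 members, DBP minus vehicle, with its 95% confidence interval from limma (n = 4 arrays per group). The 12 members with an unadjusted p under 0.05 are black, 11 of them right of zero, and only the interval of Cyp11b1 crosses a dotted 1.5-fold line.

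Of the 54 members, 43 were higher on average in DBP arrays, with a median difference of 0.08 on the log2 scale, against a median of 0.02 over all represented genes. That lean went with signal. Among the 37 members with a mean under 5, 33 were higher and the median difference was 0.10, where 80.1% of the 3020 represented genes in that range were higher, with a median of 0.09. Among the 17 members with a mean of 5 or more, 10 were higher and the median was 0.03, against 0.00 for the 11197 genes in that range. The unadjusted p was under 0.05 and DBP higher for 9 of the 37 low members, or 24.3%, where 15.7% of low genes did the same, and for 2 of the 17 others, or 11.8%, against 10.1% of the genes in that range. After quantile normalization of the table, which equalizes the spread of signals, 39 of the 54 were higher and their median difference was 0.05. After shifting every array to the same median, 46 were higher and the median was 0.10, where the median of all tested probe sets was 0.04 (0.02 as deposited).

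**Figure D3:**
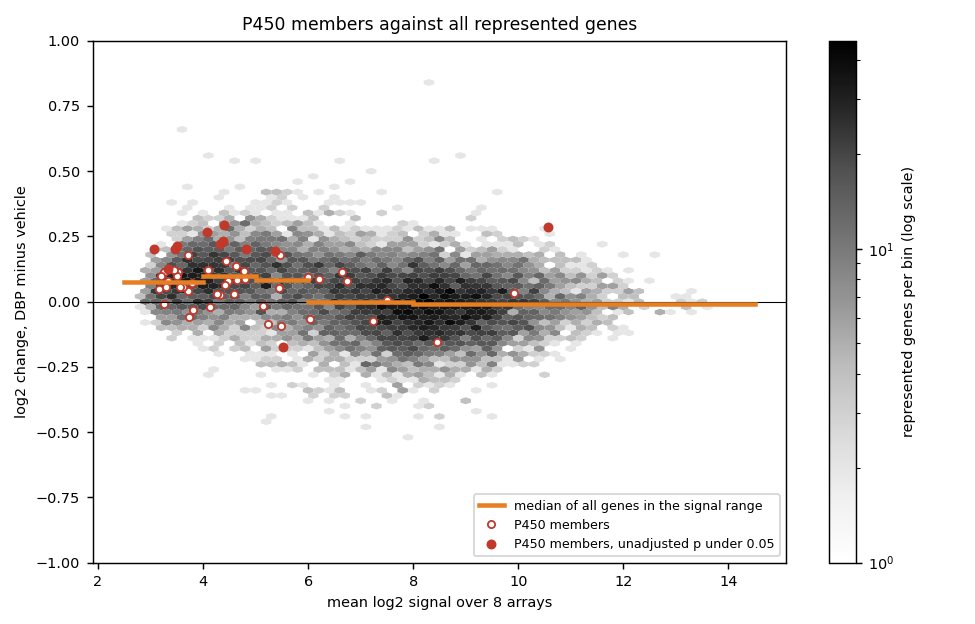
Log2 difference, DBP minus vehicle, against mean log2 signal over 8 arrays for the 14217 represented genes (grey, darker for more genes; 12 genes lie outside the axis range) and the 54 P450 members (circles, filled for an unadjusted p under 0.05). Orange lines give the median of all genes in 5 signal ranges, which is 0.08 under 4, 0.10 from 4 to 5 and -0.01 at 8 or more, and most members lie in the ranges where it is above zero.

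The difference of the low members was larger in the arrays with low spike-in signal. The mean log2 signal of the 37 low members was 3.92, 3.91, 4.02 and 4.01 in DBP replicates 1 to 4, against 3.82, 3.91, 3.87 and 3.84 in vehicle replicates 1 to 4. The mean of all 3020 low genes was 4.04, 4.01, 4.11 and 4.15 in the DBP arrays and 3.96, 4.0, 3.99 and 3.99 in the vehicle arrays. In both sets DBP replicates 3 and 4 were the highest arrays. Over all 54 members, the median difference from vehicle was 0.03 for DBP replicates 1 and 2 and 0.15 for replicates 3 and 4. A term in the fit for the arrays of low spike-in signal marks DBP replicates 3 and 4 and uses no measured spike-in value. Its differences are therefore those of replicates 1 and 2 against vehicle and no separate estimate: 37 of the 54 members were higher, with a median of 0.03.

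**Figure D4:**
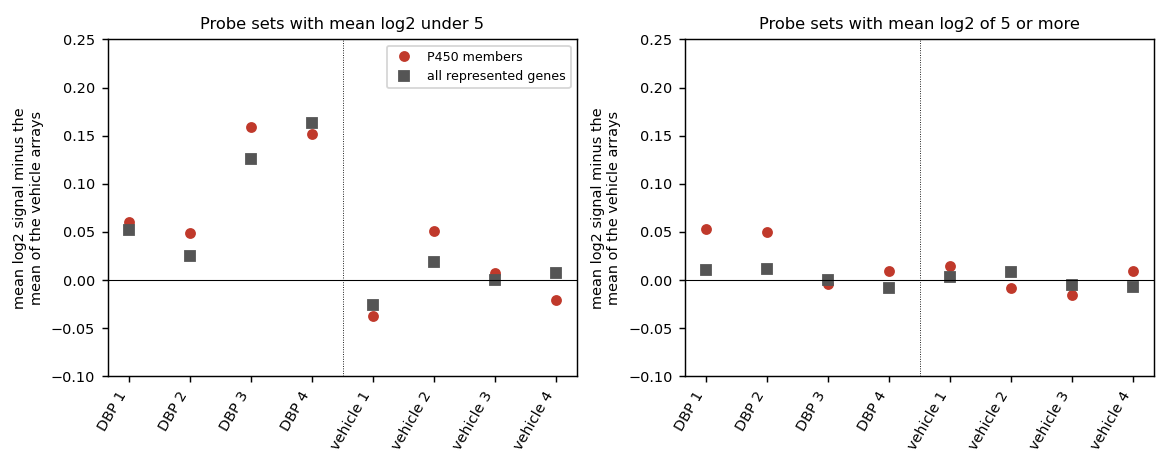
Mean log2 signal on each array minus the mean of the 4 vehicle arrays, for P450 members (circles) and all represented genes (squares), with the DBP arrays left of the dotted line. Among probe sets with a mean under 5 (left panel), DBP replicates 3 and 4 lie highest for both sets, and among the others (right panel) all points lie within 0.1 of zero.

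Among the 3 aryl hydrocarbon receptor targets, Cyp1b1, an enzyme of tissues outside the liver that oxidizes estradiol and polycyclic hydrocarbons, differed most. It read 10.66, 10.96, 10.60 and 10.65 in DBP replicates 1 to 4, against 10.47, 10.51, 10.39 and 10.36 in vehicle replicates 1 to 4. All DBP arrays lay above all vehicle arrays, with replicate 2 well above the rest. The means were 10.72 ± 0.164 in DBP and 10.43 ± 0.0695 in vehicle (SD, n = 4 each), a log2 difference of 0.29 ± 0.083 (SE; adjusted p = 0.131 in limma). The difference was 0.38 for DBP replicates 1 and 2 and 0.19 for replicates 3 and 4, and 0.20 without DBP replicate 2.

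Cyp1a1, the most widely used readout of the same receptor, read 4.10, 4.20, 4.38 and 4.40 in the DBP arrays, against 4.20, 4.46, 4.08 and 4.23 in the vehicle arrays. The groups overlapped fully, with a difference of 0.03 (95% confidence interval -0.18 to 0.24). Cyp1a2, which metabolizes caffeine and aromatic amines in liver, read 4.75, 4.86, 4.80 and 4.96 in DBP and 4.67, 4.82, 4.77 and 4.64 in vehicle arrays, a difference of 0.12 (-0.03 to 0.27). Its DBP replicates 2 and 4 lay above every vehicle array. The 2 GCGTG cores shown for Cyp1b1 and the lack of one in the window of Cyp1a2 stand beside these values as sequence only.

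Retinoic acid clearance is shared by Cyp26a1, which retinoic acid itself induces in many tissues, and Cyp26b1. Cyp26a1, whose promoter window holds the direct repeat, read 4.0, 4.12, 4.48 and 4.24 in the DBP arrays, against 4.0, 4.01, 3.82 and 3.95 in the vehicle arrays. DBP replicate 3 was highest and replicate 1 lay within the vehicle range. Its mean was 4.21 ± 0.205 in DBP and 3.95 ± 0.0874 in vehicle (SD, n = 4 each), a difference of 0.27 ± 0.098 (SE; adjusted p = 0.205). This was 0.12 for DBP replicates 1 and 2 and 0.42 for replicates 3 and 4. The second had an adjusted p of 0.0243 in limma when those 2 arrays alone were set against vehicle. In that fit 4129 of the 31042 tested probe sets passed. Replicates 3 and 4 are also the arrays of low spike-in signal, in which low genes as a whole read highest. The 3020 represented genes with a mean under 5 had a median difference of 0.135 there. The part of that shift in the value of Cyp26a1 was not tested. Cyp26b1 read 9.77, 9.88, 9.94 and 10.18 in DBP and 9.92, 9.85, 10.01 and 9.86 in vehicle arrays. Its groups overlapped, with a difference of 0.03 (-0.16 to 0.22), and its second probe set gave 0.12 (adjusted p = 0.462).

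The 2C subfamily of liver drug, steroid and arachidonic acid oxidases held 4 of the 12 members with an unadjusted p under 0.05, all higher after DBP, where 11.3% of all represented genes and 15.7% of those with a mean under 5 were higher at that level. Of its 7 members 6 had a mean under 5, and the median difference of all 7 was 0.19. Cyp2c11, the main male-specific P450 of adult rat liver, had the smallest p of all members. It read 4.56, 4.51, 4.49 and 4.64 in the DBP arrays, against 4.18, 4.37, 4.20 and 4.27 in the vehicle arrays. The groups did not overlap. The means were 4.55 ± 0.0668 in DBP and 4.26 ± 0.0858 in vehicle (SD, n = 4 each), a difference of 0.30 ± 0.064 (SE; adjusted p = 0.0625). The difference was 0.28 for DBP replicates 1 and 2 and 0.31 for replicates 3 and 4, and 0.23 (adjusted p = 0.102) after quantile normalization.

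Cyp2c6v1, another 2C gene, had the lowest mean signal of all members. It read 3.14, 3.11, 3.23 and 3.21 in DBP and 2.89, 3.03, 3.05 and 2.92 in vehicle arrays, a difference of 0.20 (adjusted p = 0.143). Its groups did not overlap. Cyp2c22 read 3.64, 3.48, 3.78 and 3.39 in DBP and 3.43, 3.37, 3.39 and 3.29 in vehicle arrays, a difference of 0.20 (adjusted p = 0.248). DBP replicate 4 equalled vehicle replicate 3. Cyp2c23, which makes epoxides of arachidonic acid in rat kidney, read 5.49, 5.29, 5.58 and 5.50 in DBP and 5.27, 5.39, 5.17 and 5.26 in vehicle arrays, a difference of 0.19 (adjusted p = 0.228). Its DBP replicate 2 lay inside the vehicle range. The other 3 members, Cyp2c7, Cyp2c12 and Cyp2c13, differed by 0.06, -0.03 and 0.10. Genes of this subfamily are close in sequence, so their probe sets may share signal, and the same holds for the 2A, 2B, 2D, 3A, 4A and 4F members below.

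The 10 members of the 2A, 2B, 2F, 2G, 2S and 2T subfamilies lie close together in one stretch of RefSeq's gene order, at most 10 protein-coding genes from the next. Their differences ran from -0.07 to 0.23 with a median of 0.10, and 8 of 10 were higher in DBP. Cyp2f4, related to a lung enzyme that activates naphthalene in mice, read 4.48, 4.48, 4.42 and 4.59 in DBP and 4.44, 4.15, 4.26 and 4.19 in vehicle arrays (difference 0.23, adjusted p = 0.156). Vehicle replicate 1 lay among the DBP values. Cyp2s1, a P450 of epithelia outside the liver, read 4.96, 4.97, 4.81 and 4.91 in DBP and 4.52, 4.87, 4.73 and 4.72 in vehicle arrays (0.20, adjusted p = 0.222). Its vehicle replicate 1 was low and replicate 2 overlapped the DBP range. Cyp2a1, a testosterone 7-alpha hydroxylase of rat liver, read 3.38, 3.34, 3.42 and 3.41 in DBP and 3.28, 3.28, 3.21 and 3.28 in vehicle arrays. Its groups did not overlap, but the difference was 0.13 (adjusted p = 0.247). Cyp2t1, whose substrates are little known, read 5.94, 6.22, 5.78 and 6.05 in DBP and 6.03, 5.99, 6.01 and 6.23 in vehicle arrays, with a difference of -0.07 and overlapping groups. The other 6, Cyp2a2, Cyp2a3, Cyp2b3, Cyp2b12, Cyp2b21 and Cyp2g1, differed by -0.02 to 0.12.

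Phenobarbital-type induction is best known for Cyp2b1 and Cyp2b2, for which the array has a probe set that names both genes, so neither was analysed as a member.

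**Figure D5:**
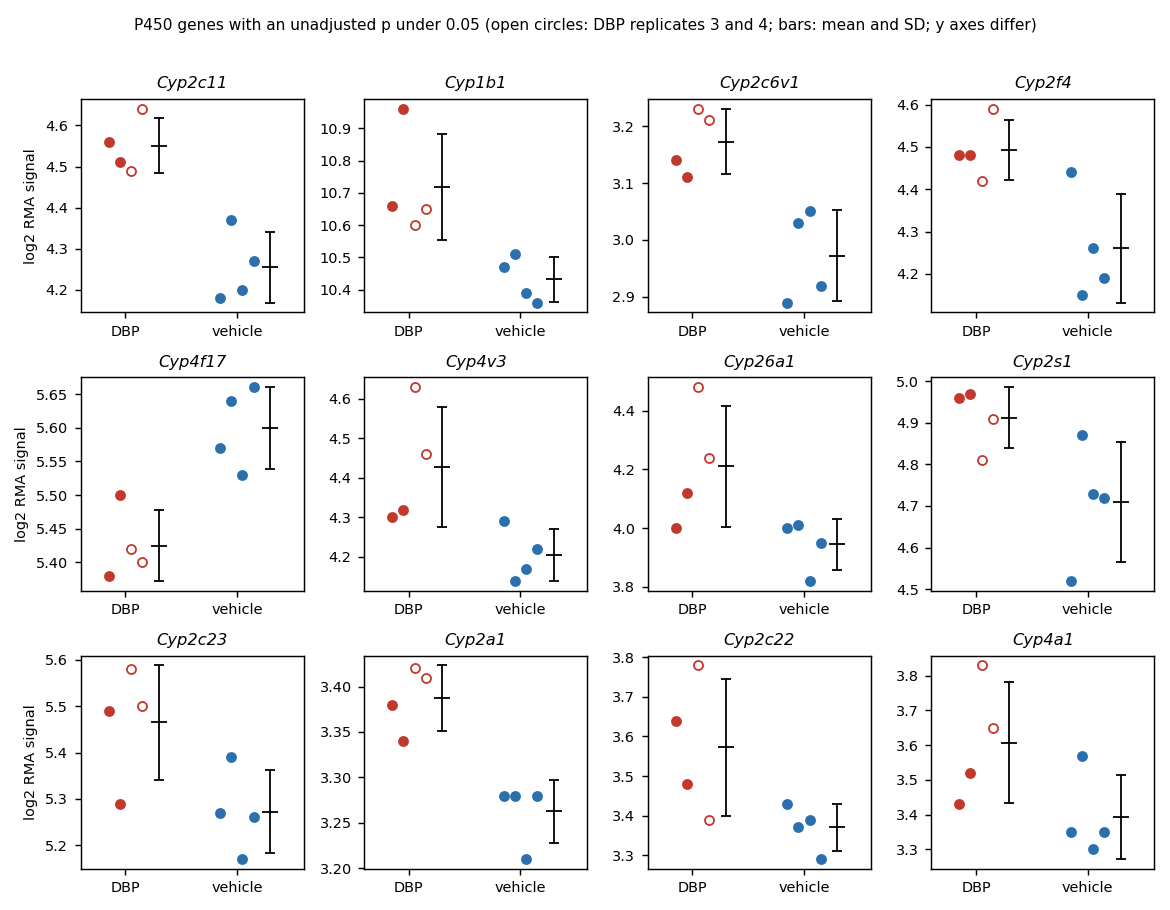
Log2 RMA signal by array of the 12 P450 members with an unadjusted p under 0.05, DBP left and vehicle right, with mean and SD bars and open circles for DBP replicates 3 and 4; the y axes differ between panels. DBP and vehicle do not overlap for Cyp2c11, Cyp1b1, Cyp2c6v1, Cyp4f17, Cyp4v3 and Cyp2a1, and Cyp4f17 is the only one lower in DBP.

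The 3A subfamily, which holds the main drug oxidases of liver, showed small differences. All 4 members had means under 4 and differed by 0.06 to 0.12, with intervals that included zero. Cyp3a23-3a1, the classical target of the pregnane X receptor, read 3.29, 3.29, 3.23 and 3.64 in DBP and 3.14, 3.43, 3.24 and 3.33 in vehicle arrays, a difference of 0.08. DBP replicate 4 was the one array outside the vehicle range, and without it the difference was -0.02.

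In the 2D, 2E, 2J and 2U subfamilies 0 of 8 members had an unadjusted p under 0.05, where 19.1% of all represented genes did. So few members cannot set these subfamilies apart from that share. Cyp2d4, a P450 also known from rat brain, read 6.58, 6.52, 6.72 and 6.99 in DBP and 6.52, 6.59, 6.60 and 6.64 in vehicle arrays. The 2 higher values were those of DBP replicates 3 and 4, with a difference of 0.12 (interval -0.10 to 0.33). This was -0.04 for replicates 1 and 2 and 0.27 for replicates 3 and 4. The second probe set of Cyp2d4 gave 0.14 (adjusted p = 0.367). Cyp2e1, the ethanol-inducible P450, read 6.26, 6.16, 6.11 and 5.63 in DBP and 5.91, 6.13, 5.78 and 5.96 in vehicle arrays, a difference of 0.10 (interval -0.19 to 0.38). DBP replicate 4 was its lowest array. Cyp2u1, a hydroxylase of long-chain fatty acids, read 7.22, 7.28, 7.01 and 7.25 in DBP and 7.25, 7.27, 7.23 and 7.30 in vehicle arrays, a difference of -0.07. Cyp2d2, Cyp2d3, Cyp2j3, Cyp2j4 and Cyp2j10 differed by -0.01 to 0.18.

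Family 4 enzymes hydroxylate the end of fatty acid chains, and its 4A members are textbook targets of PPAR alpha, the receptor through which phthalate esters act in rodent liver. The 10 members had a median difference of 0.08, 6 higher and 4 lower. Cyp4a1, the best known of these targets, read 3.43, 3.52, 3.83 and 3.65 in DBP and 3.35, 3.57, 3.30 and 3.35 in vehicle arrays. DBP replicates 3 and 4 lay above all vehicle arrays and replicates 1 and 2 within their range. The difference was 0.22 ± 0.094 (SE; adjusted p = 0.261), with 0.08 for replicates 1 and 2 and 0.35 for replicates 3 and 4. The other members of the subfamily, Cyp4a3 and Cyp4a8, differed by 0.14 and -0.06. The second probe set of Cyp4a8 had the opposite sign, 0.09 (adjusted p = 0.614), so its place among the 4 lower members rests on the probe set chosen.

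Cyp4v3, counterpart of the human gene mutated in a crystalline retinal dystrophy, read 4.30, 4.32, 4.63 and 4.46 in DBP and 4.29, 4.14, 4.17 and 4.22 in vehicle arrays. The groups did not overlap, by a margin of 0.01 between DBP replicate 1 and vehicle replicate 1, and the difference was 0.22 (adjusted p = 0.194). Its second probe set gave 0.09 (adjusted p = 0.495). Cyp4f17 was the only member with an unadjusted p under 0.05 that lay lower after DBP. It read 5.38, 5.50, 5.42 and 5.40 in DBP and 5.57, 5.64, 5.53 and 5.66 in vehicle arrays. All DBP arrays lay below all vehicle arrays, with a difference of -0.18 ± 0.057 (SE; adjusted p = 0.166) that was similar in replicates 1 and 2 (-0.16) and 3 and 4 (-0.19). Its 4F neighbours in the gene order differed in sign. Cyp4f6, whose mean was 6.78 in DBP and 6.70 in vehicle arrays, read 6.76, 6.68, 6.83 and 6.83 against 6.75, 6.64, 6.71 and 6.69, a difference of 0.08 (-0.05 to 0.21). Cyp4f1, Cyp4f4 and Cyp4f5 differed by -0.02, -0.09 and 0.08. Cyp4b1, a lung and kidney enzyme, differed by 0.16 (adjusted p = 0.336).

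The 6 sterol and bile acid hydroxylases were all higher on average, by 0.01 to 0.18. None had an unadjusted p under 0.05, where 19.1% of all represented genes did, and 6 members are too few to differ clearly from that share. Cyp7b1, the oxysterol 7-alpha hydroxylase, read 3.88, 3.82, 3.91 and 3.59 in DBP and 3.79, 3.61, 3.58 and 3.51 in vehicle arrays. Its DBP replicate 4 lay within the vehicle range, and the difference was 0.18 (-0.01 to 0.37). Cyp27a1, the mitochondrial sterol 27-hydroxylase, read 7.60, 7.42, 7.51 and 7.49 in DBP and 7.54, 7.48, 7.53 and 7.45 in vehicle arrays. Its interval of -0.12 to 0.13 was narrow around a difference of 0.01. Cyp46a1, the brain cholesterol 24-hydroxylase, read 6.10, 6.16, 6.39 and 6.32 in DBP and 6.26, 6.17, 6.16 and 6.03 in vehicle arrays, a difference of 0.09 (interval -0.09 to 0.26). The liver bile acid enzymes Cyp7a1, Cyp8b1 and Cyp39a1 differed by 0.10, 0.06 and 0.03. Cyp27b1, which activates vitamin D in kidney, differed by 0.09 (adjusted p = 0.661).

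Of the 2 corticosteroid enzymes, Cyp11b1, the 11-beta hydroxylase, varied most among all members. It read 5.87, 5.86, 5.14 and 4.87 in DBP and 5.40, 5.22, 5.62 and 5.87 in vehicle arrays. The SD was 0.509 in DBP and 0.281 in vehicle (n = 4 each), with a difference of -0.09 (adjusted p = 0.851), which was 0.34 for DBP replicates 1 and 2 and -0.52 for replicates 3 and 4. Cyp21a1, the 21-hydroxylase, read 4.70, 4.57, 4.60 and 4.55 in DBP and 4.31, 4.74, 4.63 and 4.63 in vehicle arrays, a difference of 0.03 (-0.17 to 0.23). Summed on the linear scale, the 6 measured adrenal markers, which include these 2 members, reached 341 to 415 in DBP and 434 to 449 in vehicle arrays, and 3 of the 6 were higher. Mrap, the cofactor of the corticotropin receptor and the marker with the highest signal, passed the test (-0.61, adjusted p = 0.029). So did 0.626% of all represented genes with DBP lower, and no alternative fits were compared for Mrap. Chga, a protein of secretory granules, differed by -0.34 (adjusted p = 0.21). The catecholamine enzymes Th and Dbh differed the other way, by 0.27 (adjusted p = 0.115, groups not overlapping) and 0.22 (adjusted p = 0.225). Their part in the spread of Cyp11b1 was not tested. Cyp20a1, whose substrate is not established, read 8.49, 8.25, 8.49 and 8.29 in DBP and 8.63, 8.49, 8.52 and 8.50 in vehicle arrays. Its DBP replicates 2 and 4 lay below the vehicle range, for a difference of -0.16 (interval -0.32 to 0.01).

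Partners of P450 enzymes were read from lists, beside the 1.22% of all represented genes that passed the threshold (0.598% higher and 0.626% lower). Of 7 measured electron transfer genes 0 passed. Por, the reductase of all microsomal P450 enzymes, averaged 8.94 in DBP and 8.80 in vehicle arrays, a difference of 0.13 (adjusted p = 0.28), and Fdx1, the mitochondrial ferredoxin, differed by 0.18 (adjusted p = 0.165). Cyb5a and Pgrmc1, a cytochrome b5 and a membrane heme binder, differed by 0.12 and -0.07. Of 19 sensor genes 0 passed. At an unadjusted p under 0.05, 2 were higher and 1 lower, where 11.3% of all represented genes were higher and 7.84% lower. Arnt, the partner of the aryl hydrocarbon receptor, read 6.53, 6.29, 5.57 and 6.07 in DBP and 6.62, 6.32, 6.74 and 6.52 in vehicle arrays, a difference of -0.44 (adjusted p = 0.237). The receptor Ahr, its repressor Ahrr and the liver factor Hnf4a differed by 0.19, 0.18 and 0.22, with adjusted p values of 0.301, 0.247 and 0.219.

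Among 9 measured genes of heme synthesis and breakdown, 1 fell, where 0.626% of all represented genes did. Hmox1, the inducible heme oxygenase, read 7.95, 7.92, 8.01 and 7.98 in DBP and 8.40, 8.29, 8.44 and 8.19 in vehicle arrays, a difference of -0.37 ± 0.066 (SE; adjusted p = 0.032). It missed the threshold without vehicle replicates 1, 2 or 3 or DBP replicates 1 or 3 (adjusted p up to 0.126), with the replicate block (0.0674), without moderation (0.105) and after quantile normalization (0.0534). Alas1, the rate-limiting enzyme of heme synthesis outside red cells, differed by 0.20 (adjusted p = 0.311), Urod by 0.16 and Hmox2, the constitutive oxygenase, by 0.17.

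Among 36 measured genes of conjugation, hydrolysis and other oxidation, 1 rose, where 0.598% of all represented genes did. At an unadjusted p under 0.05, 8 were higher and 0 lower, where 11.3% of all represented genes were higher and 7.84% lower. Fmo5, a flavin-dependent monooxygenase that oxidizes drugs without heme, read 9.03, 9.09, 8.99 and 9.47 in DBP and 8.56, 8.61, 8.57 and 8.57 in vehicle arrays. All DBP arrays lay above all vehicle arrays, with replicate 4 highest, and the difference was 0.57 ± 0.097 (SE; 0.46 without DBP replicate 4), with an adjusted p of 0.0246. The call was lost when any single vehicle replicate was left out (highest adjusted p 0.099), with the replicate block (0.0507) and without moderation (0.13). It was also lost with a term for the arrays of low spike-in signal (0.0752), whose difference of 0.48 is that of DBP replicates 1 and 2. Set alone against vehicle in limma, replicates 1 and 2 kept the call (adjusted p = 0.00734), as did replicates 3 and 4 (0.0158). The transferases Gstp1, Mgst3 and Gstk1, named for their small p, differed by 0.23, 0.25 and 0.26, with adjusted p values of 0.0992, 0.116 and 0.131. Their groups did not overlap, as was so with DBP higher for 7.31% of all represented genes. Other transferases were lower, among them Mgst2 (-0.12), Gsta3 (-0.11) and Gsta1 (-0.10). Of the 36 genes 25 were higher, against 56.6% of all represented genes. These 36 genes, of which 8 averaged under 5, had a median difference of 0.09. Over all represented genes it was 0.02, with 0.00 for those averaging 5 or more and 0.09 for those under 5.

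Markers of other cell types were read beside the members. Of all represented genes, 1.22% passed the threshold (0.598% higher and 0.626% lower). The 6 hepatocyte markers summed to 227 to 266 in DBP and 211 to 247 in vehicle arrays on the linear scale, all 6 were higher by 0.07 to 0.23, and 0 passed. The 5 macrophage markers summed to 272 to 316 in DBP and 268 to 294 in vehicle arrays, and the 6 Leydig cell markers to 21625 to 24068 in DBP and 22638 to 23692 in vehicle arrays, with 0 past the threshold in either list. In the Sertoli, germ, smooth muscle, erythroid and mesonephric duct lists 0 of 19 measured genes passed. Of 4 endothelial genes 1 rose, Plvap, a protein of vessel walls (0.36, adjusted p = 0.0471), and no alternative fits were compared for it. The part of these cell types in the members' differences was not tested.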

How the data were processed

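RNA of 8 fetal testis samples had been hybridised to 1 array each. The authors deposited log2 values per probe set, and RMA (background correction, quantile normalization and summary of probes) is the method in the submitters' processing notes; no version or annotation build is given there. Of 31099 probe sets, 57 controls were set aside and 31042 tested. The platform's gene table gave 20826 of these 1 symbol, 436 several and 9780 none, and genes were named only from the first kind. All 54 members matched RefSeq by gene ID.

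Groups were compared with limma 3.58.1 in R 4.3.3 (moderated linear model, 2-sided, Benjamini-Hochberg over all tested probe sets, threshold 0.05). Every adjusted p comes from this model, and differences are DBP minus vehicle. Tables used Python 3.11.15 with pandas 2.3.3, and plots matplotlib 3.10.9. The test was checked on simulated data. Members and lists were chosen with earlier results of these data known. Per-array values are given for members with an unadjusted p under 0.05, the 12 of highest mean signal and a set chosen by role, 27 in all, and partner lists are named by up to 4 genes of smallest p. Of the role set, Cyp2b1 and Cyp24a1 were not analysed here. Alternatives covered scaling, prior, block, covariates, weights, filters, arrays, probe set choice and threshold. Promoter sequences are from RefSeq, build GRCr8.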

Additional observations from a re-analysis of the deposited data

Results flagged for a closer look

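In each group of 4 arrays, the highest and the lowest array were set against the other 3, and 4 of the 58 groups examined had an array whose gap to its nearest neighbour exceeded 0.829 of the group's range. Chance flags about 1 in 20 groups. Cyp1b1 read 10.96 in DBP replicate 2, where the other DBP arrays lay between 10.60 and 10.66. Cyp2t1 read 6.23 in vehicle replicate 4, with the other vehicle arrays between 5.99 and 6.03. Cyp2a1 read 3.21 in vehicle replicate 3, where the other 3 arrays all read 3.28. Cyp3a23-3a1 read 3.64 in DBP replicate 4, with the other DBP arrays between 3.23 and 3.29.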

How the results depend on the processing

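The count of members past the threshold was 0 in the reported fit and under every alternative except 2: setting DBP replicates 3 and 4 alone against vehicle gave 4 (Cyp26a1, Cyp2c11, Cyp4a1 and Cyp4v3), where 4129 of all probe sets passed, and a threshold of 0.10 gave 1 (Cyp2c11). The count with an unadjusted p under 0.05, 12 as reported, was 7 with RNA integrity as a covariate. It was 8 to 11 when 1 array was left out, 6 with a term for the arrays of low spike-in signal and 19 for DBP replicates 3 and 4. That term gives the differences of DBP replicates 1 and 2, which had a count of 10 when set alone against vehicle. Of all probe sets, 18.2% were under 0.05 as reported, 12.9% with the spike-in term and 33.6% for DBP replicates 3 and 4. The rise to 19 was thus shared with all probe sets. With RNA integrity as a covariate the share of all probe sets was also lower than reported. The count was 3 among the 17 members with a mean above 5 and 1 among the 8 above the median. These filters removed members, and in the reported fit 3 of those 17 were also under 0.05. Over all probe sets 331 passed, against 74 without moderation, 175 with the replicate block, 577 for DBP replicates 1 and 2, 820 at a threshold of 0.10, 70 at 0.01, and 82 to 606 when 1 array was left out. With the replicate block 0 members passed and 11 had an unadjusted p under 0.05, 9 of them among the 12. Deviations of DBP and vehicle arrays of the same number correlated at 0.108, -0.0756, 0.0967 and -0.0205, and 2 of 4 DBP arrays correlated best with their own number. These few values cannot decide whether arrays of the same number shared a batch. After shifting arrays to the same median, 158 probe sets were higher and 159 lower of those past the threshold, against 130 and 201 as reported, and 0 members passed.

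For the 12 members with an unadjusted p under 0.05, all 243 recomputed differences kept their direction. The 12 were chosen by p in these same arrays, so this is weak support. Their p was under 0.05 in every alternative for Cyp1b1, Cyp4f17, Cyp2c11 and Cyp2f4. It was so in 8 of 20 for Cyp4a1 and Cyp2a1, 10 of 20 for Cyp2c22 and 11 of 21 for Cyp2c23. Of the 12, 6 stayed under 0.05 with RNA integrity as a covariate and 5 with the spike-in term. Among the 27 members with per-array values, 10 changed sign in 36 recomputed differences, in which the unadjusted p was never under 0.05. The alternatives for Fmo5 and Hmox1 were chosen after seeing the data. Limits include low signal, with 37 members averaging under a log2 of 5, the low spike-in signal of DBP replicates 3 and 4, and 4 arrays per group.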

Other observations

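Probe sets that name several genes were kept apart from the members. Of these, 7 include a P450, and 0 passed the threshold. The probe set naming Cyp11b1 and Cyp11b2 read 5.95, 5.64, 5.63 and 4.89 in DBP and 5.54, 5.38, 5.88 and 6.07 in vehicle arrays, lowest in DBP replicate 4 as Cyp11b1 was. The probe set naming Cyp2b2 and Cyp2b1 read 3.72, 3.54, 3.59 and 3.78 in DBP and 3.55, 3.50, 3.51 and 3.46 in vehicle arrays, a difference of 0.15 (adjusted p = 0.258 in limma). The other 5 differed by 0.04 to 0.16 (adjusted p of 0.24 to 0.916).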
